A study of Mus musculus with 6 samples.

Results

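A group of 9 mouse genes of the apoptotic machinery was examined in liver: Mcl1, Bcl2l1, Bcl2l11, Bbc3, Bid, Bad, Bmf, Bak1 and Casp8. They were taken by gene symbol from a list of BCL2 family and apoptotic caspase genes, and all 9 were found once among the 28880 genes measured. RNA-seq compared the livers of 3 acute ethanol-exposed mice with those of 3 control mice, all wild type male C57BL/6J animals aged 6 to 8 weeks. The ethanol-exposed mice went without food for 12 h and were given 6 g/kg of ethanol by mouth 1 time, as a 50% solution, and their livers were taken after 24 h. The control mice received no ethanol, and whether they were fasted is not given in the sources used here, so fasting and ethanol cannot be told apart. Each library came from 1 mouse, all 6 carry the same batch label, and 60514417 to 74210869 reads per library were counted on genes. Ethanol mouse 3 stood apart from the other ethanol mice, at -99.4 on the second principal component of log2 CPM (17.5% of the variance) where they lay at 37.6 and 58.4.

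Proteins of the BCL2 family decide whether the outer mitochondrial membrane stays intact. Anti-apoptotic members such as MCL1 and BCL-XL hold the pore-forming effectors BAK and BAX in check, and the BH3-only members (BIM, PUMA, BID, BAD and BMF) relieve that hold or activate the effectors directly. Opened mitochondria release cytochrome c, which activates caspases, and in hepatocytes the caspase bound to death receptors, encoded by Casp8, feeds into the same pore by cleaving BID.

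Of the 9 genes, 4 rose in acute ethanol-exposed livers and 0 fell. The risers were both anti-apoptotic genes, Bcl2l1 and Mcl1, and the BH3-only genes Bcl2l11 and Bmf. Bbc3, Bid, Bad, Bak1 and Casp8 did not pass the threshold. A gene was called when edgeR's quasi-likelihood test gave a Benjamini-Hochberg adjusted p under 0.05 over the 16717 genes tested and its log2 fold change lay beyond 1. All 9 genes passed the filter on low counts. By this rule 10.4% of all genes tested were called higher and 13.8% lower. With the adjusted p alone, 5 of the 9 were higher and 0 lower, against 21.5% of all genes higher and 21.5% lower.

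The scaling of the libraries moved the fold changes of all 9 genes, and turned the direction of Bak1 and Casp8. Fold changes are relative to TMM scaling, under which the median over all genes tested was -0.04 on the log2 scale. Scaling by library size alone gave -0.71, and lower genes made up 86.4% of those called instead of 57.0%. Under that scaling 2 of the 9 genes were called higher, Bcl2l1 and Bcl2l11, and 1 lower, Bid. Of all 16717 genes tested, 846 were called higher there and 5385 lower. FPKM, the deposited level per transcript length and sequencing depth, carries no TMM correction, so FPKM values of the groups follow library size. CPM, counts in proportion to depth, are scaled to the TMM-normalized library size. In bulk liver, fewer cells of a type and less RNA per cell cannot be told apart.

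In control mice Mcl1 had the highest level of the 9 genes, with 22.9 ± 1.55 FPKM (SD, n = 3). Bcl2l1 at 6.59 ± 0.377 FPKM and Casp8 at 6.56 ± 0.63 FPKM did not differ beyond their spread. Bbc3 came next with 5.01 ± 0.362 FPKM. Bad (3.90 ± 0.181 FPKM), Bak1 (3.63 ± 0.455) and Bid (3.47 ± 0.0869) lay close together, with Bak1 overlapping both. Bmf had 1.22 ± 0.388 FPKM, and Bcl2l11 was the lowest at 0.404 ± 0.108 FPKM. In ethanol-exposed mice Mcl1 (36.6 ± 11.5 FPKM) and Bcl2l1 (32.8 ± 2.55 FPKM) no longer differed beyond their spread. Casp8 followed with 6.37 ± 0.496 FPKM. Bcl2l11 had 3.29 ± 1.96 FPKM and moved from the ninth place to the fourth by group mean, although ethanol mouse 3 (1.04 FPKM) was lower than all libraries of the fifth-ranked Bbc3. The other 5 genes had group means of 1.67 (Bid) to 3.12 FPKM (Bbc3).

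**Figure D1:**
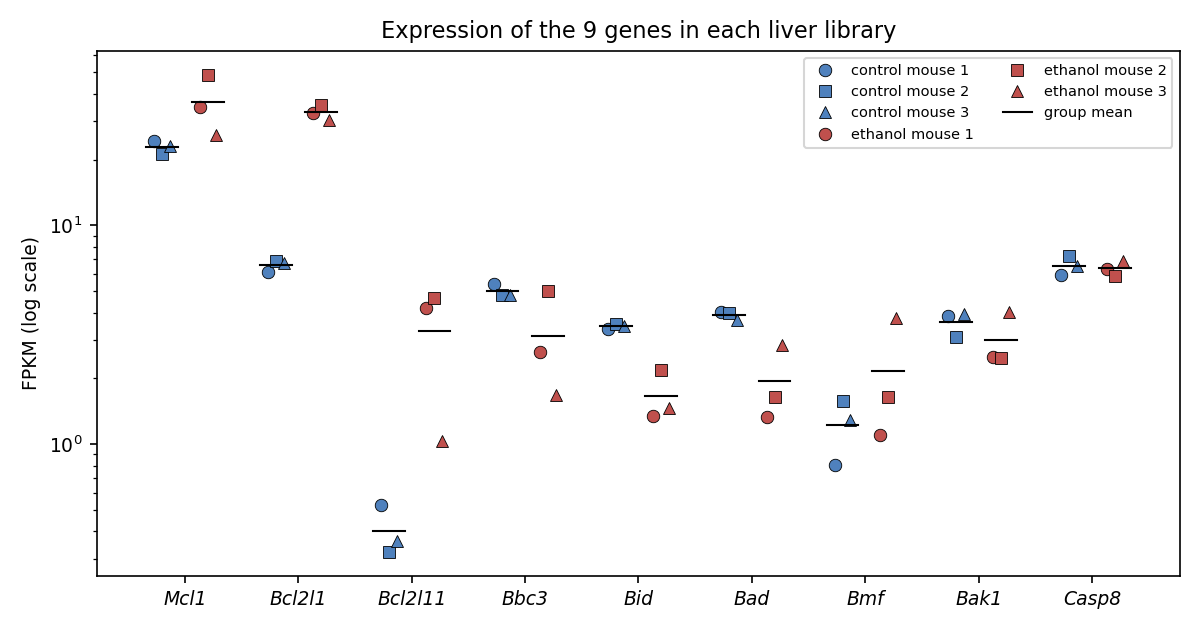
FPKM of the 9 genes on a log axis in the 3 control libraries (blue) and the 3 ethanol libraries (red), with 1 symbol per mouse and a line at the group mean. Bcl2l1 and Bcl2l11 show the widest gaps between groups, and ethanol mouse 3 lies apart from the other ethanol mice in Bcl2l11 (1.04 FPKM) and Bmf (3.76 FPKM).

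Bcl2l1 (ENSMUSG00000007659, chromosome 2, 152622588 to 152673648 on the minus strand in the deposited table) encodes BCL-XL, a main survival protein of hepatocytes. Its level was 32.6, 35.5 and 30.4 FPKM in ethanol mice 1 to 3 and 6.16, 6.85 and 6.76 FPKM in control mice 1 to 3. The groups lay far apart and the ethanol libraries lay close together. Expression was 7.91-fold higher after ethanol, or 2.98 on the log2 scale (standard error 0.104, edgeR adjusted p = 3.52e-05). The SD of log2 CPM was 0.0543 among ethanol-exposed mice, where the median over all genes tested was 0.342. Bcl2l1 was the only one of the 9 genes that varied less among ethanol-exposed than among control mice. With each library left out in turn its log2 fold change stayed between 2.93 and 3.03, and with library size alone it was 2.32.

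Mcl1 (ENSMUSG00000038612, chromosome 3, 95566099 to 95570487, plus strand) encodes a short-lived anti-apoptotic protein on which hepatocytes also depend. Its level was 34.9, 48.9 and 25.9 FPKM in ethanol mice 1 to 3 and 24.4, 21.3 and 23.0 FPKM in control mice 1 to 3. Ethanol mouse 3 came close to the highest control mouse, and no library overlapped. Expression was 2.53-fold higher, or 1.34 on the log2 scale (standard error 0.198, adjusted p = 0.00209). It was 0.68 with library size alone, which is under the threshold on the fold change. Within a library, where the scaling between libraries plays no part, the ratio of Mcl1 to Bcl2l1 in FPKM was 1.07, 1.38 and 0.854 in ethanol mice 1 to 3. The same ratio was 3.96, 3.10 and 3.41 in control mice 1 to 3, above every ethanol mouse.

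Bcl2l11 (ENSMUSG00000027381, chromosome 2, 127967958 to 128000362, plus strand) encodes BIM, a BH3-only protein that binds all anti-apoptotic family members and can activate BAX and BAK. Its level was 4.18, 4.65 and 1.04 FPKM in ethanol mice 1 to 3 and 0.527, 0.323 and 0.362 FPKM in control mice 1 to 3. Ethanol mouse 3 was far below the other ethanol mice and still above each control mouse. By edgeR, Bcl2l11 had the largest fold change of the 9 genes, 3.67 on the log2 scale (standard error 0.543, adjusted p = 0.0021) or 12.7-fold. With limma on log2(FPKM + 1) the order was reversed, with 1.48 for Bcl2l11 and 2.15 for Bcl2l1. Without ethanol mouse 3 the log2 fold change was 4.10 with a standard error of 0.185, and with library size alone and all libraries it was 3.02.

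Bmf (ENSMUSG00000040093, chromosome 2, 118359238 to 118380168, minus strand) encodes a BH3-only protein that is held at the cytoskeleton in healthy cells. Its level was 1.10, 1.65 and 3.76 FPKM in ethanol mice 1 to 3 and 0.805, 1.57 and 1.29 FPKM in control mice 1 to 3. In FPKM the groups overlapped, and only ethanol mouse 3 was clearly above the control mice. In CPM ethanol mice had 7.98, 11.1 and 27.6 and control mice 3.60, 7.03 and 5.78, without overlap. Bmf was 2.84-fold higher by the fit, or 1.51 on the log2 scale (standard error 0.482, adjusted p = 0.04). The call rested on single libraries. Without ethanol mouse 3 the log2 fold change was 0.81 (adjusted p = 0.0471), under the threshold, and the adjusted p was 0.132, 0.0727 and 0.108 without control mouse 1, 2 or 3. Bmf was also not called with library size alone (log2 fold change 0.82, adjusted p = 0.167) or with upper quartile scaling (adjusted p = 0.0507). The summed FPKM of 8 neutrophil markers had the same order as Bmf among ethanol mice 1 to 3 (2.51, 4.19 and 14.7), and its part in the result was not tested.

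**Figure D2:**
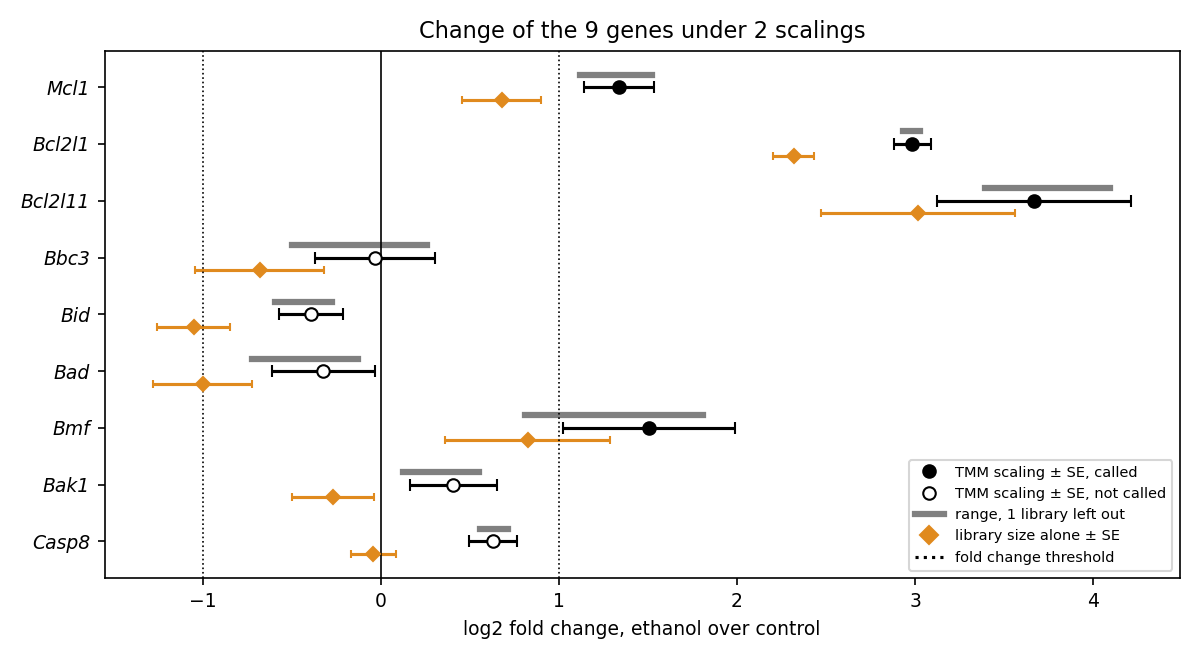
Log2 fold change of ethanol over control for the 9 genes, as the TMM-scaled estimate with its standard error (circles, filled where called), the range with 1 library left out (grey bars) and the estimate with library size alone (diamonds). Bcl2l1 and Bcl2l11 stay beyond 1 throughout, while Bak1 and Casp8 change sign between the scalings.

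Promoter sequences of the pair with the largest rises are shown, those of the BH3-only gene and the anti-apoptotic gene that rose most. The sequences are the 250 bases before the most upstream RefSeq start of each gene on build GRCm38.p6, read on the strand of the gene. Capitals mark every match, on either strand, to GTAAACA (the FOXO core), GGGCGG (GC box) or CCAAT. The Bcl2l11 window is chr2:128125788-128126037, plus strand, and the Bcl2l1 window is chr2:152831729-152831978, minus strand.
Bcl2l11: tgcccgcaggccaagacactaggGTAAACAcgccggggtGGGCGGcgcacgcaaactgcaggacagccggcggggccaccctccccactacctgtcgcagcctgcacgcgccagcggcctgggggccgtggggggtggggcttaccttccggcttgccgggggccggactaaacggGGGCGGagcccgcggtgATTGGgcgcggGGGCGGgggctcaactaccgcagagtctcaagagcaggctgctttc
Bcl2l1: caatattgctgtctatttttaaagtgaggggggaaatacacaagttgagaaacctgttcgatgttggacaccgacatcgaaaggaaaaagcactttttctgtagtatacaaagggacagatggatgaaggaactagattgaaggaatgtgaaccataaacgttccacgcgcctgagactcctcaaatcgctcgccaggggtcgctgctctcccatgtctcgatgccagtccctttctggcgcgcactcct

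In Bcl2l11 the FOXO letters lay at -227 to -221, counted in bases from the start site, followed by GGGCGG beginning at -211, -74 and -46 and the reverse complement of CCAAT at -57. No other of the 9 genes had GTAAACA in this window, and 3.06% of 27026 such promoters held it. GGGCGG was present in Mcl1, Bcl2l11, Bbc3, Bid and Bad, and in 33.0% of all promoters. CCAAT was present in Bcl2l11, Bmf and Casp8, and in 34.5% of all promoters. None of the 9 windows held TTCNNNGAA (STAT, 7.14% of all promoters), TGANTCA (AP-1, 6.85%), TGACGTCA (CRE, 1.60%), CACGTG (E-box, 6.04%) or TATAAA (13.0%). Both strands were searched throughout, and matches to different motifs did not overlap in these 9 windows. GC content ran from 39.6% in Casp8 to 76.4% in Bbc3, with 47.6% in Bcl2l1, 72.0% in Bcl2l11 and a median of 52.0% over all promoters. Bcl2l1, Bbc3 and Bmf have 3 RefSeq start windows each and Bcl2l11 and Bad have 2, and which start was used in these livers was not tested.

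Among the other BH3-only genes, Bbc3 (ENSMUSG00000002083, chromosome 7, 16042318 to 16052130, plus strand) encodes PUMA, a classical target of p53. Its level was 2.64, 5.02 and 1.68 FPKM in ethanol mice 1 to 3 and 5.42, 4.80 and 4.79 FPKM in control mice 1 to 3. In FPKM ethanol mouse 2 lay within the control range and the other ethanol mice below it. In CPM ethanol mouse 2 (13.7) lay above all control mice (8.66 to 9.76) and the others (7.77 and 5.02) below them. Its estimate of -0.03 on the log2 scale (standard error 0.336, adjusted p = 0.946) lay between -0.50 and 0.26 with 1 library left out, the extremes being those without ethanol mouse 2 and without ethanol mouse 3. Library size scaling gave -0.68 (adjusted p = 0.15).

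Bid (ENSMUSG00000004446, chromosome 6, 120868891 to 120893814, minus strand) links death receptors to mitochondria once its protein is cleaved. Its level was 1.35, 2.19 and 1.47 FPKM in ethanol mice 1 to 3 and 3.38, 3.55 and 3.48 FPKM in control mice 1 to 3. Every ethanol mouse was below every control mouse in FPKM, and also in CPM, where the lowest control mouse had 10.2. The difference of -0.39 on the log2 scale (standard error 0.181, adjusted p = 0.121) did not pass the test. Without ethanol mouse 2 it was -0.59 (adjusted p = 0.0224), under the threshold on the fold change. Under library size scaling it was -1.05 (adjusted p = 0.0041), which passes the threshold.

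Bad (ENSMUSG00000024959, chromosome 19, 6919229 to 6929267, plus strand) encodes a BH3-only protein that survival kinases inactivate by phosphorylation. Its level was 1.34, 1.65 and 2.84 FPKM in ethanol mice 1 to 3 and 4.03, 3.97 and 3.69 FPKM in control mice 1 to 3. The groups did not overlap in FPKM, but in CPM ethanol mouse 3 (10.2) was above all control mice (8.05 to 8.73). Bad differed by -0.32 on the log2 scale (standard error 0.288, adjusted p = 0.397), and by -0.72 (adjusted p = 0.00354) without ethanol mouse 3. Under library size scaling the difference was -0.999 (adjusted p = 0.0181), just short of the threshold on the fold change.

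The make-up of the transcripts of these 5 BH3-only genes thus differed between the groups within single libraries. Other family genes, such as Bik (2.49 to 3.42 FPKM in ethanol-exposed and 3.5 to 5.05 in control mice), were left out of the sums. Bcl2l11 made up 39.4%, 30.7% and 9.65% of the summed FPKM of the 5 BH3-only genes in ethanol mice 1 to 3, and 2.27% to 3.72% in control mice. Bmf made up 34.8% in ethanol mouse 3, against 10.3% and 10.9% in the other ethanol mice and 5.68% to 11.1% in control mice. Bid took 12.8% to 14.5% in ethanol-exposed and 23.9% to 25.6% in control mice. The summed FPKM of the 5 genes was 10.6, 15.2 and 10.8 in ethanol mice 1 to 3 and 13.6 to 14.2 in control mice, so that the ethanol mice lay on both sides of the control range. That of Mcl1 and Bcl2l1 together was 67.5, 84.4 and 56.3 against 28.1 to 30.5. The ratio of the anti-apoptotic pair to the 5 BH3-only genes was 6.36, 5.57 and 5.23 in ethanol mice 1 to 3 and 2.16, 1.98 and 2.19 in control mice 1 to 3. All ethanol mice lay above all control mice, and this ratio of mRNA levels says nothing of protein amounts.

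**Figure D3:**
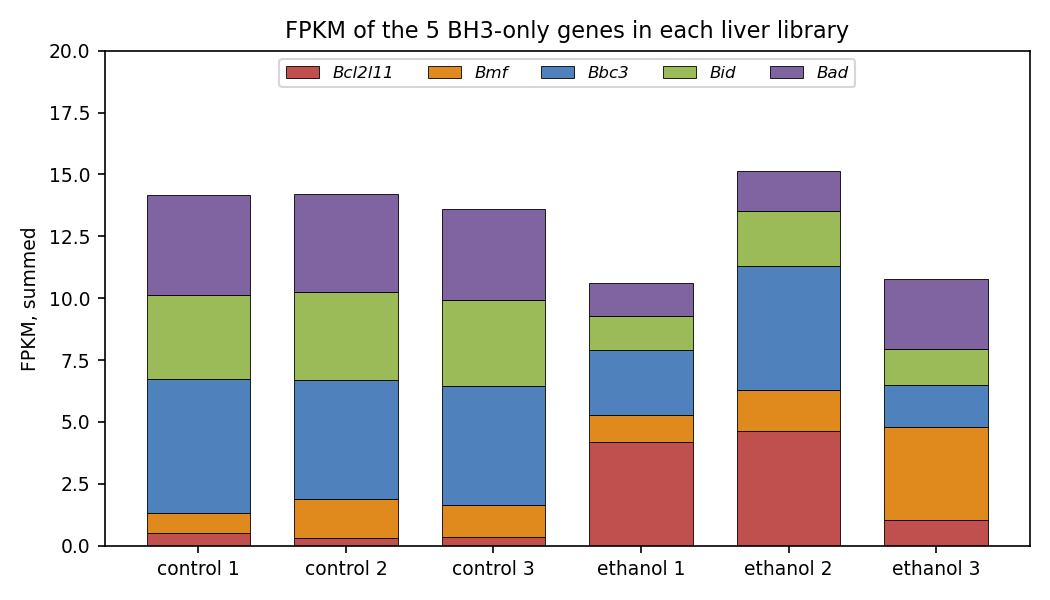
FPKM of the 5 BH3-only genes stacked for each library, with the control mice on the left and the ethanol-exposed mice on the right. Bcl2l11 fills 30.7% to 39.4% of the bar in ethanol mice 1 and 2, while Bmf fills 34.8% in ethanol mouse 3.

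Bak1 (ENSMUSG00000057789, chromosome 17, 27238784 to 27247983, minus strand) encodes BAK, a pore-forming effector resident on mitochondria. Its level was 2.51, 2.48 and 4.02 FPKM in ethanol mice 1 to 3 and 3.85, 3.11 and 3.93 FPKM in control mice 1 to 3. In FPKM ethanol mouse 3 was the highest of all libraries and the other ethanol mice the lowest. In CPM ethanol mice 1 to 3 had 8.36, 7.67 and 13.5 and control mice 7.84, 6.35 and 8.05, so that the groups overlapped. The estimate was 0.41 on the log2 scale (standard error 0.243, adjusted p = 0.213), and -0.27 with library size alone.

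Casp8 (ENSMUSG00000026029, chromosome 1, 58834533 to 58886662, plus strand) encodes the initiator caspase of death receptors. Its level was 6.33, 5.89 and 6.88 FPKM in ethanol mice 1 to 3 and 5.96, 7.22 and 6.50 FPKM in control mice 1 to 3, with full overlap. In CPM the ethanol mice (21.8 to 27.8) lay above the control mice (14.6 to 17.7). The TMM estimate was 0.63 on the log2 scale (standard error 0.135, adjusted p = 0.00879), past the adjusted p and under the threshold on the fold change. It was -0.04 (adjusted p = 0.802) with library size alone, so that the direction of Casp8 depends on the scaling.

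The strand setting of the counting is not given in the sources used here, so counts of overlapping genes are uncertain. Mcl1, Bcl2l1, Bcl2l11, Bbc3 and Bmf overlapped no other gene of the table. Bid shares its end with Bcl2l13 on the opposite strand (2036 to 2123 counts in ethanol-exposed and 2119 to 2692 in control mice), and holds Gm44260 on its own strand (0 to 4 and 0 to 16 counts) and Gm17812 on the opposite strand (0 and 0 to 6 counts). Bad touches Gpr137 on the opposite strand, whose 663 to 794 counts in ethanol-exposed and 1365 to 1536 in control mice exceed those of Bad itself (274 to 554 and 658 to 819), and holds Gm56656 (at most 3 counts). Bak1, with 469 to 737 counts in ethanol-exposed and 484 to 736 in control mice, lies within Ggnbp1 (395 to 537 and 298 to 464) and Gm50253 (450 to 549 and 605 to 884) on the opposite strand. Bid itself had 383 to 612 counts in ethanol-exposed and 817 to 954 in control mice. The part of these neighbours in the values of Bid, Bad and Bak1 was not tested. Casp8 holds Gm37760 on its own strand, with 25 to 36 counts in ethanol-exposed and 0 to 10 in control mice, against 1317 to 1515 counts of Casp8 itself.

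The CPM of the groups did not overlap for 6 of the 9 genes. Mcl1, Bcl2l1, Bcl2l11, Bmf and Casp8 were higher in every ethanol mouse, as were 28.0% of all genes tested, and Bid was lower, as were 31.0%. For 8 of the 9 genes the SD of log2 CPM was larger among ethanol-exposed than among control mice, which held for 74.1% of all genes. Ethanol mouse 3 was the one farther from the middle of the ethanol mice for 6 of the 9 genes (Mcl1, Bcl2l1, Bcl2l11, Bad, Bmf and Bak1), against 52.5% of all genes. It was the lowest ethanol mouse for Mcl1, Bcl2l1, Bcl2l11 and Bbc3 and the highest for Bad, Bmf, Bak1 and Casp8. Of the 4 risers, 3 (Bmf, Bcl2l11 and Bcl2l1) lie on chromosome 2, where 127 of 1277 genes tested (9.95%) were called higher. In the pathway annotation that the table carries, 8 of the 9 genes belong to apoptosis and Bmf does not. Mcl1 and Bcl2l1 are also annotated to JAK-STAT signaling, and Bcl2l1, Bbc3, Bid and Casp8 to p53 signaling.

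Markers of other liver cells were measured beside these genes. The summed FPKM of 8 hepatocyte markers was 49300 to 54700 in ethanol-exposed and 42600 to 48500 in control mice, with 3 called higher. That of 8 neutrophil markers was 2.51, 4.19 and 14.7 in ethanol mice 1 to 3 and 0.737 to 0.971 in control mice, with 5 of 6 tested genes called higher. Erythroid markers (5 genes) were at 532 to 761 against 201 to 250, with 4 called higher. Kupffer cell markers (8 genes, 0 called) were at 37.0 to 47.4 against 69.6 to 76.1, and endothelial markers (8 genes, 1 called higher and 3 lower) at 14.3 to 27.4 against 29.1 to 33.7. Stellate cell markers (8 genes, 2 called lower) were at 16.8 to 20.1 against 24.2 to 30.0, and cholangiocyte markers (6 genes, 1 called higher) at 16.3 to 24.9 against 20.1 to 49.0. T cell markers (7 genes, 1 called lower) were at 0.164 to 0.260 against 0.909 to 1.27, and B cell markers (5 genes, 1 called lower) at 1.05 to 1.80 against 2.78 to 3.89. No marker was at 0 in all libraries. These sums of FPKM carry no TMM correction. Under TMM scaling the median log2 fold change was 0.757 for hepatocyte, 4.12 for neutrophil and 2.26 for erythroid markers. It was -0.315 for Kupffer cell, -0.799 for endothelial, -0.273 for stellate cell and -0.198 for cholangiocyte markers. For T cell and B cell markers it was -0.994 and -0.658. The part of these cells in the changes of the 9 genes was not tested.

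Beyond the 9 genes, 93 further genes of the pathway, grouped by role, were tested. Of these, 15 were called higher and 11 lower, or 28.0%, with a median log2 fold change of 0.04, where 10.4% of all genes tested were called higher and 13.8% lower. In the rest of the BCL2 family, Bnip3, a mitophagy receptor with a BH3-like stretch, rose by 2.83 on the log2 scale (adjusted p = 7.3e-05), to 127 ± 9.59 from 28.6 ± 3.69 FPKM. Pmaip1 (NOXA) was called higher at 9 to 41 counts per library and Bok lower (-1.02), and each call was lost when any of several single libraries was left out (5 and 4 of the 6 libraries). Bax, the other main effector, stood at 0.33 (adjusted p = 0.135), but at -0.336 with library size alone. Of the 4 further anti-apoptotic genes tested, 0 were called. Bcl2 had 0.0534 to 0.115 FPKM over the libraries, and Bcl2l2 differed by -0.53 on the log2 scale (adjusted p = 0.0132). Of the other apoptotic caspases, Casp9, the initiator at the apoptosome, stood at -0.11 on the log2 scale (adjusted p = 0.53) and Casp6 at 0.74 (adjusted p = 0.00643), and neither was called. Casp4, an inflammatory caspase, rose by 1.71, a call lost without control mouse 3 (adjusted p = 0.0538).

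Downstream of the pore, Apaf1, the scaffold of the apoptosome, rose by 1.82 (adjusted p = 0.000465), from 0.293 ± 0.0404 to 0.653 ± 0.0155 FPKM. Cycs stood at 0.47 (adjusted p = 0.00993), but at -0.198 with library size alone. Among the IAP genes, some of which restrain caspases, 3 of 9 fell, against 13.8% of all genes tested. Xiap fell by 1.02 (-0.96 without control mouse 3), Birc5 by 2.34 and Naip6, which has near-identical paralogs, by 2.61. Among receptor and ligand genes of the TNF family, the TNF receptor genes Tnfrsf1a and Tnfrsf1b rose by 1.29 and 2.53. The ligand gene Tnfsf10 fell by 2.48 (-3.07 without ethanol mouse 2), and the death receptor gene Fas stood at 0.41 (adjusted p = 0.0977). Of the proteins around Casp8, the adaptor gene Fadd fell by 2.41 (adjusted p = 0.00232), from 1.47 ± 0.108 to 0.171 ± 0.084 FPKM. The Casp8 inhibitor gene Cflar, at -0.96 on the log2 scale (adjusted p = 0.00378), stayed under the threshold. The necroptosis genes Ripk3 and Mlkl moved in opposite directions, by 1.65 and -1.25, and the call of Mlkl was lost without any 1 of 4 libraries. Parp1 and Dffa, substrates of caspases, fell by 1.34 and 1.72, the latter called only with all libraries or without ethanol mouse 3, where it was -2.74.

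Among partners of the 9 gene products, Pim3 and Pim1, kinases that phosphorylate BAD, rose by 3.86 and 1.27. Sfn, of the adaptor family that binds phosphorylated BAD, rose by 1.83, to 0.717 ± 0.167 FPKM. More abundant adaptor genes were not called, with Ywhag at -0.89 (adjusted p = 0.00473), Ywhaq at -0.44 (0.0325) and Ywhaz at 0.44 (0.0287). Of the 16 genes of BAD phosphorylation and these adaptors, 3 were called higher and 0 lower, and 9 had lower estimates. Dynll2, the light chain that tethers BMF, fell by 1.06 (adjusted p = 0.000385), from 41.6 ± 2.09 to 12.6 ± 0.869 FPKM. Fbxo4 and Marchf5, ubiquitin ligase genes linked to MCL1 turnover, rose by 1.12 and 1.04. Of the transcription factors known to act on BH3-only genes, Foxo1 rose by 1.75, Jun by 3.78 (3.12 without ethanol mouse 2) and Myc by 3.52, and Trp53 fell by 1.39. Foxo3, the classical regulator of Bcl2l11, stood at 0.73 on the log2 scale (adjusted p = 0.103). The balance of the calls followed the scaling, with 8 pathway genes called higher and 31 lower under library size alone. Of the 26 calls, 19 held there, and Pmaip1, Casp4, Tnfrsf1a, Ripk3, Fbxo4, Marchf5 and Pim1 lost theirs. With limma on log2(FPKM + 1), 12 of the calls held and 12 were lost, and the rest were not tested. With limma on log2(FPKM + 0.1), 16 held and 8 were lost. Apaf1 was among those lost in both (log2 fold change 0.355 and 0.944). Xiap lost its call with the transcript length trend removed (-0.995). Of the called genes, Bnip3, Fadd, Mlkl, Parp1, Pim1, Trp53, Foxo1 and Jun overlap other genes of the table, Parp1 and Foxo1 on the same strand and the others on the opposite strand, so that their counts are uncertain.

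**Figure D4:**
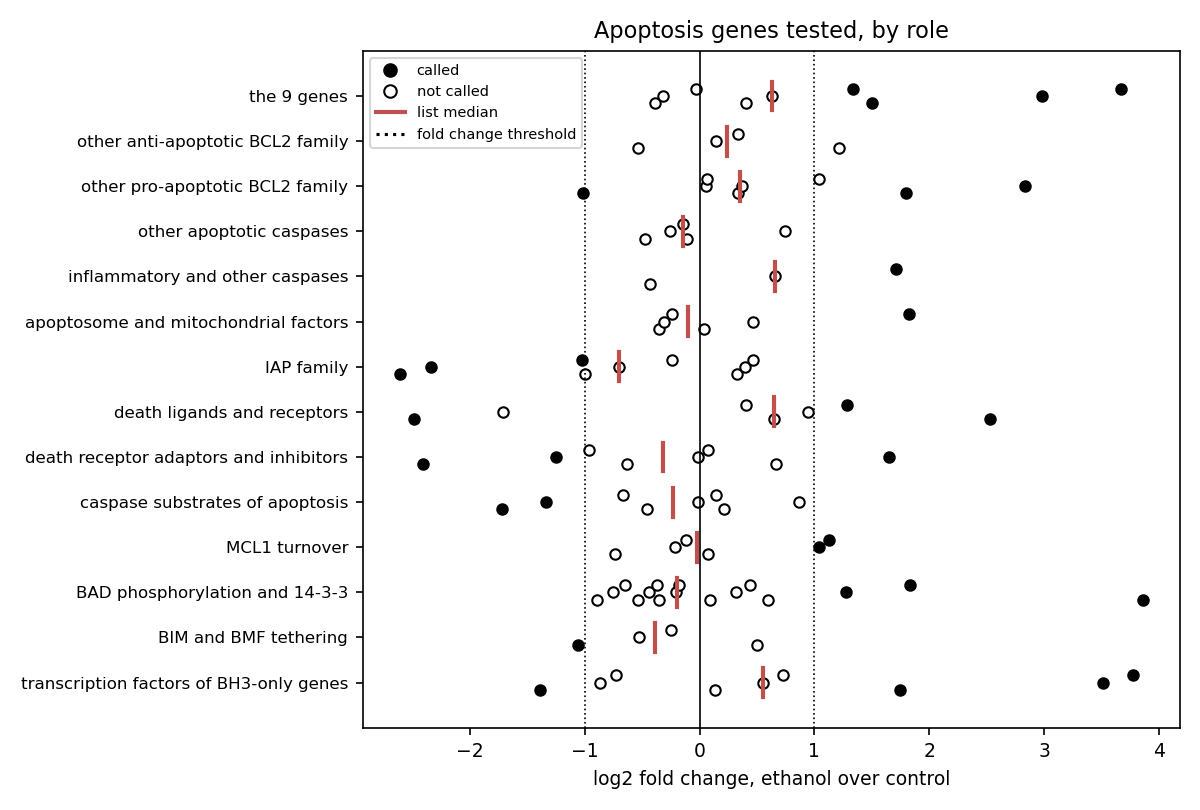
Log2 fold change of ethanol over control under TMM scaling for the 9 genes and the 93 further pathway genes tested, 1 point per gene, in rows by role. Filled points were called, and red bars mark the median of each row, which is 0.63 for the 9 genes and between -0.70 (IAP family) and 0.66 (inflammatory and other caspases) for the other rows.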

How the data were processed

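Gene expression was measured by paired-end RNA-seq (150 bp) in 6 mouse livers. For each gene the authors deposited a raw count of reads and an FPKM value per library, after removal of adaptor, low-quality and ambiguous reads. The aligner, the counting software and its strand setting are not given in the sources used here. The submitters' processing notes name GRCm38 and mm10, but only 494 of 27049 genes had the position that GENCODE M21 gives on GRCm38, so positions are those of the deposited table and were not joined to the promoter sequences. These came from RefSeq (GRCm38.p6), matched by symbol for 9 of 9 genes. A further 1 column of counts matched no library and was not used.

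Counts were filtered by filterByExpr, scaled by TMM and compared between groups by edgeR 4.0.16 quasi-likelihood tests (R 4.3.3), two-sided, with Benjamini-Hochberg adjustment over all genes tested. Standard errors are the log2 fold change divided by the square root of the test's F statistic. TMM factors were 0.768 to 0.836 in ethanol-exposed and 1.26 to 1.27 in control mice. The study's thresholds were kept, and it names no tool. Replicates were checked for a library deposited more than once, and none was found (chi-square 49.6 to 496 times its degrees of freedom between replicates). Precision rests on 3 mice per group. Alternatives were DESeq2 1.42.0, limma 3.58.1 on log2(FPKM + 1) and log2(FPKM + 0.1) for genes averaging 0.1 FPKM or more, other scalings and filters, the adjusted p alone, the replicate number as a block, and each library left out. The tests were checked on simulated data. Those data were given no difference in scaling between the groups, so the check does not bear on the choice of scaling. Members, lists, motifs and alternatives were chosen with earlier results of these data known. Named genes are the 9 genes, the called genes of each list (up to 3 per direction) and a fixed set of core genes (among them Bcl2, Bcl2l2, Bax, Casp9, Apaf1, Cycs, Fas and Cflar). Bik, Casp6, Foxo3, Ywhag, Ywhaq and Ywhaz were added after their values were seen. Some genes of the lists are not reported here.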

Additional observations from a re-analysis of the deposited data

How the results depend on the processing

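The calls of Bcl2l1 and Bcl2l11 held under every alternative in which they were tested, and no called gene of the 9 changed direction in any. Mcl1 kept its call except with library size alone and with limma on either pseudocount. With a mean FPKM of at least 5, only 3 of the 9 genes were tested and 2 were called, Bcl2l1 and Mcl1. With limma on log2(FPKM + 1), 2 were called, Bcl2l1 and Bcl2l11. The cause was not tested. Bmf lost its call with 3 scalings or filters (library size alone, upper quartile, no filter), with limma and without 4 of the 6 libraries in turn. With limma on log2(FPKM + 0.1), Bid (-1.04) and Bad (-1.04) were called lower, as were 4965 of all 16007 genes tested in that fit. Of all genes tested, 4039 were called, and 6231 with library size alone, 872 with a mean FPKM of at least 5, where 4328 instead of 16717 genes were tested, 2121 with limma on log2(FPKM + 1) and 7189 with the adjusted p alone. Of the pathway genes, 26 were called, 39 with library size alone (8 higher and 31 lower) and 35 with limma on log2(FPKM + 0.1) (6 higher and 29 lower), and 9, 17 and 47 with the FPKM minimum of 5 (fewer genes tested), limma on log2(FPKM + 1) and the adjusted p alone. With 1 library left out, 3 or 4 of the 9 genes were called.

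The groups share replicate numbers, but libraries with the same number did not deviate together (correlation of deviations of -0.0332, -0.0218 and -0.0196), and 0 of 3 ethanol mice correlated best with the control mouse of the same number. With the replicate number as a block, 4 of the 9 genes, 25 pathway genes and 3518 of all genes were called. Counts of 274 or more per library for 8 of the 9 genes, and of 169 or more for Bcl2l11, leave counting error small.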

Other observations

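The pattern of Bcl2l11 across the ethanol-exposed mice, with ethanol mouse 3 far below the others, was also seen among the called pathway genes, of which 4 examples were picked after their values were seen. Jun was at 75.6, 138 and 17.6 FPKM in ethanol mice 1 to 3 and 7.09 to 9.94 FPKM in control mice. Myc was at 12.9, 15.8 and 1.82 FPKM and at 1.21 to 1.5 FPKM in control mice. Pim3 was at 300, 315 and 86.2 FPKM and at 20.3 to 28.7 FPKM in control mice. Tnfrsf1b was at 26.1, 33.0 and 11.9 FPKM and at 6.14 to 6.85 FPKM in control mice. Foxo1 did not share this order, with 6.15, 6.69 and 7.34 FPKM in ethanol mice 1 to 3. Foxo3, which was not called, was also lowest in ethanol mouse 3, with 4.76, 7.12 and 2.48 FPKM. In control mice Foxo3 was at 4.15 to 5.23 FPKM. The opposite order, with ethanol mouse 3 highest, was that of Bmf and of Dffa (0.327, 0.525 and 1.69 FPKM) and Trp53 (0.859, 1.06 and 1.75 FPKM), although both of these were below every control mouse (4.43 to 4.64 FPKM for Dffa and 4.70 to 5.64 FPKM for Trp53).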
